A study of Mus musculus with 12 samples.

Results

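The genes described here are 29 genes of cholesterol synthesis and its control, found among the 55416 gene identifiers of the deposited tables. They were taken as a fixed list of symbols, chosen with earlier results of these data known. They comprise 18 enzymes of the pathway, 5 genes that control the SREBP transcription factors, and 6 genes of sterol transport, efflux and its nuclear receptors. Their RNA was measured by sequencing in the gastrocnemius, the large calf muscle, and in the hypothalamus, the brain region that governs feeding and energy balance. Cachectic mice were male BALB/c mice, 7 weeks old when CT-26 cells, a colon carcinoma line from the same strain, were placed under the skin of the abdomen, and their tissues were taken on day 25. Control mice were male BALB/c mice of the same stated age without tumor cells, and the day on which their tissue was taken was not stated separately. Each of the 3 CT-26 mice and 3 control mice gave 1 library per tissue, so there were 12 libraries in 4 groups of 3. The model rests on 1 transplanted tumor line in 1 inbred strain and 1 sex.

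Cholesterol is built in the cell from acetyl-CoA by way of mevalonate, isoprenoid diphosphates, squalene and lanosterol. When membranes run short of sterol, Scap carries the SREBP proteins, encoded by Srebf1 and Srebf2, out of the endoplasmic reticulum to be cut, and the released part switches on the genes of synthesis, whereas the Insig proteins hold Scap back when sterol is plentiful. When sterol accumulates, oxysterols activate the liver X receptors, encoded by Nr1h2 and Nr1h3, which raise the exporters Abca1 and Abcg1. Plasma lipoproteins do not cross into the brain in quantity, so the brain makes its own cholesterol, most of which lies in the myelin wrapped by oligodendrocytes around axons, and Apoe carries sterol between its cells.

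Each gastrocnemius library held between 26015741 and 42771331 expected counts, and each hypothalamus library between 27195316 and 52535761. Muscle fiber markers (6 genes) summed to 74770 to 125900 CPM in CT-26 gastrocnemius and 124100 to 162800 CPM in control gastrocnemius, and to at most 47.49 CPM in the hypothalamus. Neuron markers (6 genes) summed to 2704 to 2779 CPM in CT-26 hypothalamus and 2203 to 2374 CPM in control hypothalamus, and to at most 1.461 CPM in any gastrocnemius library, so both tissue labels matched their markers. CPM here is edgeR's count relative to the library total after TMM scaling, which makes libraries comparable but does not correct for transcript length, and a gene was called changed when its Benjamini-Hochberg adjusted p in edgeR's quasi-likelihood test was below 0.05. All 29 genes passed the filter on low counts in both tissues.

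In control mice the pathway was expressed at a higher level in the hypothalamus than in the gastrocnemius. On the TPM scale, which corrects for transcript length and so allows levels to be compared between genes, 28 of the 29 genes had a higher mean in the control hypothalamus, among them all 18 enzymes. The ratio of control means, hypothalamus over gastrocnemius, had a median of 6.99 over the enzymes and ran from 1.26 for Hsd17b7, a sterol ketone reductase, to 57.4 for Sqle, the squalene epoxidase. Nr1h3, the liver X receptor alpha, was the exception, with a mean of 2.58 ± 0.433 TPM in the control hypothalamus and 8.12 ± 0.97 TPM in the control gastrocnemius (SD, n = 3 each). These ratios set 2 tissues of different RNA makeup side by side and were not tested.

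The level differed widely between members within a tissue. In the control hypothalamus Apoe, the main lipoprotein component of brain, averaged 1896 ± 106 TPM (SD, n = 3). Hmgcs1, the cytosolic HMG-CoA synthase, followed at 117 ± 4.65 TPM, Srebf2 at 72.5 ± 5.03 TPM and Fdps, the farnesyl diphosphate synthase, at 58.3 ± 1.31 TPM, and these 3 did not overlap one another between mice. In the control gastrocnemius Apoe led as well, at 58.0 ± 18.3 TPM, ahead of Nr1h2, the liver X receptor beta, at 22.0 ± 2.28 TPM and Fdft1, the squalene synthase, at 19.2 ± 3.97 TPM, whose mice overlapped. The lowest means in the control gastrocnemius were 0.337 ± 0.0757 TPM for Abcg1 and 0.44 ± 0.13 TPM for Stard4, a sterol carrier protein.

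**Figure D1:**
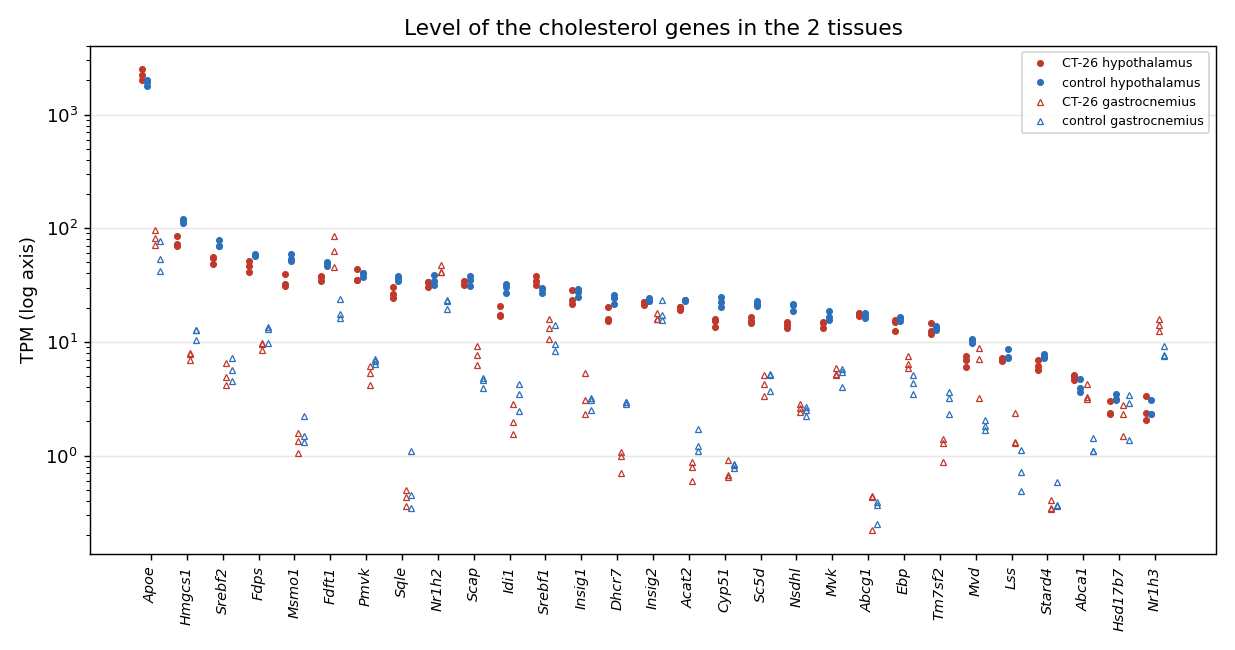
TPM of each of the 29 genes (x axis, by falling hypothalamic level) on a log axis, 1 point per mouse, with filled circles for the hypothalamus and open triangles for the gastrocnemius, and CT-26 mice (red) left of control mice (blue). In control mice 28 of the 29 genes lie higher in the hypothalamus, and Nr1h3 lies lower.

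In the hypothalamus of CT-26 mice the enzymes of cholesterol synthesis fell together. Of the 18 enzymes 12 were lower than in controls, none was higher, and all 18 had a log2 fold change below 0, with a median of -0.40 against -0.0032 over all genes tested. Of all 17961 genes tested in this tissue, 8.77% were called, 4.83% as lower and 3.94% as higher, whereas 44.8% of the 29 genes were called lower and 3.45% higher. Because the list was chosen with earlier results of these data known, these shares are given as description only. The CPM of CT-26 mice lay below that of controls without overlap for 15 of the 18 enzymes, a separation in that direction seen for 15.6% of all genes and in either direction for 30.3%. The summed level of the 18 enzymes was 411.7, 451.0 and 385.6 TPM in the CT-26 mice, against 566.3, 587.4 and 538.6 TPM in the control mice.

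Among the enzymes that lead from acetyl-CoA to farnesyl diphosphate, Hmgcs1 (chr13:119690379-119708260, plus strand, GRCm38) had 195.1, 230.6 and 209.9 CPM in CT-26 mice, against 323.2, 331.0 and 296.5 CPM in control mice. Its log2 fold change was -0.58 ± 0.067 (SE), with an edgeR adjusted p of 0.000943. Every CT-26 mouse lay below every control mouse. Idi1 (chr13:8885501-8892451, plus strand), the isopentenyl diphosphate isomerase, had the most negative fold change of the 29 genes in this tissue. It measured 44.16, 52.91 and 45.66 CPM in CT-26 mice, against 77.37, 84.21 and 67.71 CPM in control mice, a log2 fold change of -0.69 ± 0.087 (edgeR adjusted p = 0.00144), and the groups did not overlap.

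Mvd, which decarboxylates mevalonate diphosphate, had 9.841, 10.38 and 8.998 CPM in CT-26 mice and 14.84, 15.22 and 13.76 CPM in control mice, a log2 fold change of -0.59 ± 0.088 (edgeR adjusted p = 0.00342). Fdps was lower by less, at 43.59, 45.81 and 40.44 CPM in CT-26 mice against 53.34, 55.76 and 53.84 CPM in control mice (log2 fold change -0.33 ± 0.059, edgeR adjusted p = 0.00865). Neither gene's groups overlapped. Mvk, the mevalonate kinase, fell by 0.30 ± 0.076 on the log2 scale (edgeR adjusted p = 0.0368), but its adjusted p lay between 0.0602 and 0.1593 when CT-26 mouse 1, 2 or 3 or control mouse 2 or 3 was left out. Acat2, the cytosolic thiolase that opens the route, had a log2 fold change of -0.18 (edgeR adjusted p = 0.0600) with groups that did not overlap, and Pmvk, the phosphomevalonate kinase, had -0.04 with overlapping groups.

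Of the enzymes that turn farnesyl diphosphate into cholesterol, Fdft1 (chr14:63145150-63179578, minus strand) had 97.33, 97.27 and 95.15 CPM in CT-26 mice, against 128.3, 129.4 and 121.0 CPM in control mice. The log2 fold change was -0.39 ± 0.047 (edgeR adjusted p = 0.00116), and the spread among the CT-26 mice was small beside the gap to the controls. Sqle, which makes squalene epoxide, had 63.09, 69.77 and 60.87 CPM in CT-26 mice and 86.01, 91.01 and 80.31 CPM in control mice (log2 fold change -0.41 ± 0.065, edgeR adjusted p = 0.00458). Cyp51, the lanosterol demethylase, had 51.89, 52.8 and 48.67 CPM in CT-26 mice and 76.08, 84.12 and 68.69 CPM in control mice (log2 fold change -0.58 ± 0.072, edgeR adjusted p = 0.00135). Both genes were lower in every CT-26 mouse than in any control mouse.

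The methyl groups of lanosterol are removed by Msmo1, the methylsterol monooxygenase, and by Nsdhl, a sterol dehydrogenase. Msmo1 had 51.85, 64.4 and 54.33 CPM in CT-26 mice and 83.54, 88.91 and 84.08 CPM in control mice, a log2 fold change of -0.59 ± 0.075 (edgeR adjusted p = 0.00143). Nsdhl had 25.69, 26.02 and 25.2 CPM in CT-26 mice and 38.09, 38.5 and 33.58 CPM in control mice, a log2 fold change of -0.52 ± 0.069 (edgeR adjusted p = 0.00197). Both fell without overlap between the groups.

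The last double bonds are set by Sc5d, a sterol desaturase, and Dhcr7, the dehydrocholesterol reductase that ends the route. Sc5d, the member with the smallest p in this tissue, had 56.04, 62.13 and 60.13 CPM in CT-26 mice and 86.66, 86.96 and 79.8 CPM in control mice (log2 fold change -0.51 ± 0.057, edgeR adjusted p = 0.000789). Dhcr7 had 33.42, 36.83 and 33.21 CPM in CT-26 mice and 51.68, 51.35 and 44.58 CPM in control mice (log2 fold change -0.52 ± 0.073, edgeR adjusted p = 0.00273). Again the groups did not overlap. The other 4 enzymes of this stretch, Lss, Tm7sf2, Hsd17b7 and Ebp, did not pass the test, with log2 fold changes between -0.25 and -0.05.

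The 2 SREBP genes moved in opposite directions in the hypothalamus. Srebf2, the isoform that mainly drives cholesterol genes, had 183.3, 210.7 and 184.9 CPM in CT-26 mice and 237.1, 245.6 and 235.7 CPM in control mice, a log2 fold change of -0.31 ± 0.060 (edgeR adjusted p = 0.0116). Srebf1, whose products mainly drive fatty acid genes, had 97.33, 92.62 and 89.51 CPM in CT-26 mice and 79.85, 77.27 and 69.92 CPM in control mice, a log2 fold change of 0.30 ± 0.059 (edgeR adjusted p = 0.0136), and neither gene's groups overlapped. Leaving out CT-26 mouse 1 ended the call of Srebf1 (edgeR adjusted p = 0.0515), as did TPM with limma (0.0999), and leaving out control mouse 2 ended that of Srebf2 (0.0558). Scap, the escort protein, and Insig1 and Insig2, which retain it, did not pass the test, with log2 fold changes of 0.03, -0.16 and 0.05 and overlapping groups.

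None of the 6 genes of transport, efflux and liver X receptors was called in the hypothalamus by edgeR, where 3 had an unadjusted p below 0.05, and DESeq2 called the same 3, Apoe and Abca1 as higher and Stard4 as lower. Stard4 had 24.8, 29.84 and 28.29 CPM in CT-26 mice and 35.04, 33.27 and 31.91 CPM in control mice, and Apoe had 1813, 1550 and 1549 CPM in CT-26 mice and 1383, 1453 and 1399 CPM in control mice. Neither gene's groups overlapped, yet both missed the threshold, with log2 fold changes of -0.27 (edgeR adjusted p = 0.0549) and 0.21 (adjusted p = 0.0772). Abca1 had a log2 fold change of 0.28 (edgeR adjusted p = 0.0935) with overlapping groups, and Abcg1, Nr1h2 and Nr1h3 had values between -0.04 and 0.11.

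**Figure D2:**
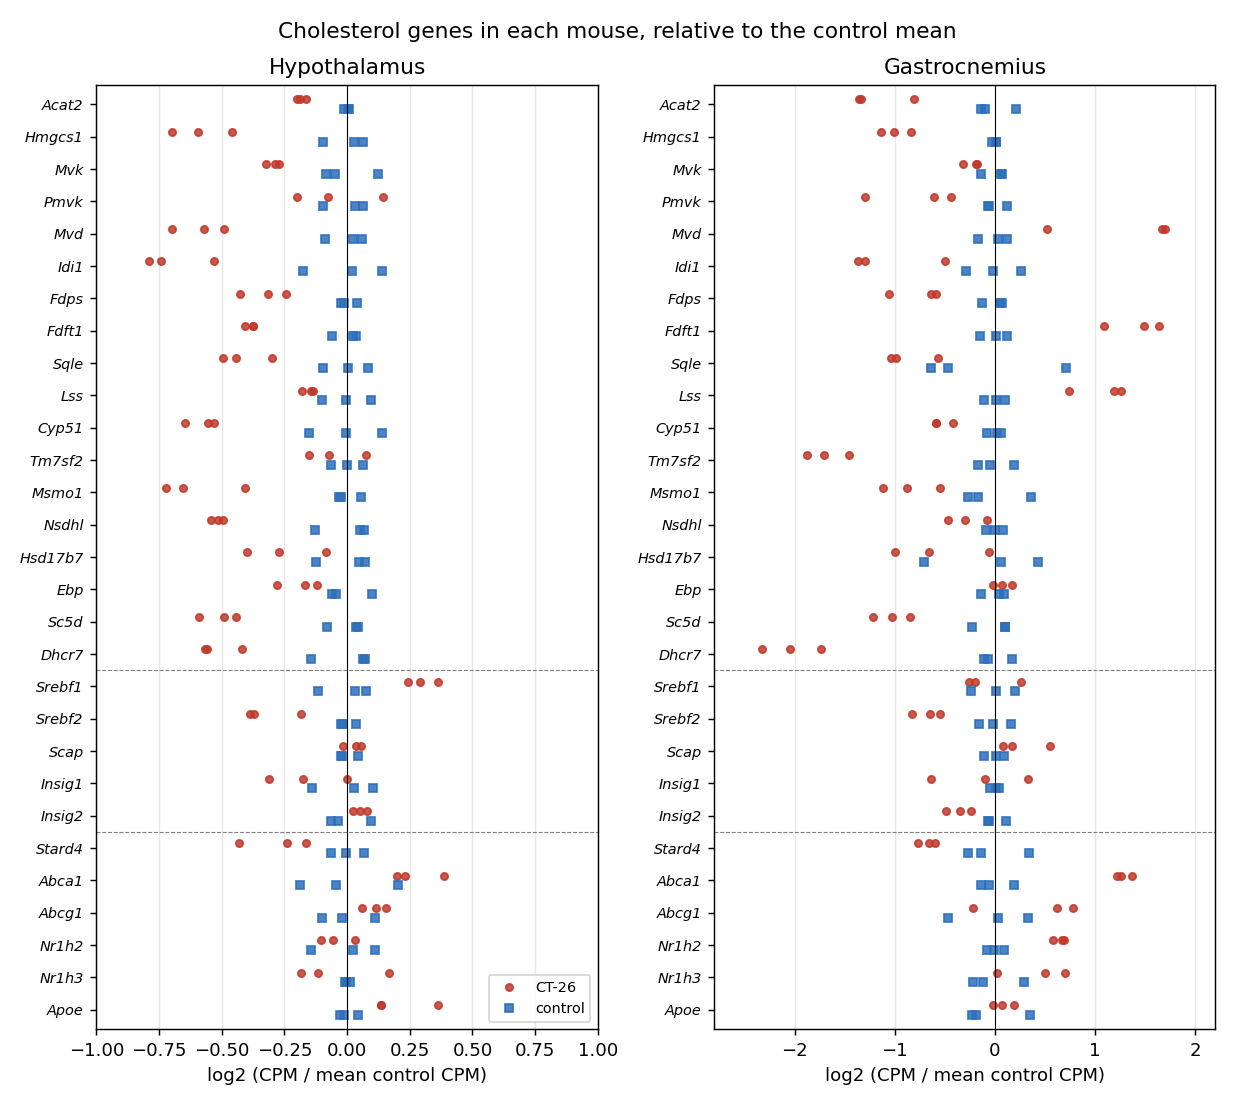
Difference of each library from the mean of the control libraries of its tissue, on the log2 CPM scale, for all 29 genes (rows, with dashed lines between enzymes, SREBP control and transport), 1 point per mouse, CT-26 mice as red circles above control mice as blue squares. The 2 tissues have x axes of different range. In the hypothalamus 17, 17 and 18 of the 18 enzymes lie below the control mean in CT-26 mice 1, 2 and 3, and 5, 3 and 17 do in control mice 1, 2 and 3, the last by a median of -0.09, whereas in the gastrocnemius Fdft1, Mvd and Lss stand out as higher among enzymes that are mostly lower.

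The fall in the hypothalamus was seen in each CT-26 mouse. The median difference of the 18 enzymes from the control mean was -0.42, -0.34 and -0.46 on the log2 scale in CT-26 mice 1, 2 and 3, against 0.02, 0.06 and -0.09 in control mice 1, 2 and 3. Of the 14 calls in this tissue, 9 were kept under each of 12 alternatives, but a fit in which both tissues shared 1 spread estimate called only 3 members, Cyp51, Hmgcs1 and Nsdhl, all lower. Fdps and Dhcr7 were not called on TPM with limma (adjusted p = 0.0600 and 0.0693). The fit over both tissues called 162 genes of all 18746 it tested, where the fit of the hypothalamus alone called 1575.

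Markers of oligodendrocytes, the myelin-forming cells, moved with the enzymes in the hypothalamus. Of 8 such markers 7 were lower in CT-26 mice and none was higher, where 4.83% of all genes tested were called lower and 3.94% higher. The markers had a median log2 fold change of -0.61, and their sum was 3102 to 3380 CPM in CT-26 mice and 4615 to 5145 CPM in control mice. The fit over all 12 libraries did not call Mbp, Mog, Cnp and Cldn11 (edgeR adjusted p = 0.0544 to 0.3889). Cldn11 was also not called on TPM with limma or without CT-26 mouse 1 or 3 (edgeR adjusted p = 0.0907 and 0.0795). None of the 8 markers was at 0, and per mouse their median difference from the control mean was -0.61, -0.47 and -0.65 in CT-26 mice and 0.04, 0.02 and -0.10 in control mice.

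Astrocyte markers summed to 2222 to 2308 CPM in CT-26 mice and 2137 to 2322 CPM in control mice, with Aldoc called higher and Aqp4 and Gja1 lower among 6, and microglia markers summed to 140.0 to 171.4 CPM in CT-26 mice and 141.8 to 154.2 CPM in control mice, with C1qa and C1qb called higher among 9. The fit over all 12 libraries called none of these 5 genes (edgeR adjusted p = 0.181 to 0.7746). Aldoc was also not called on TPM or without CT-26 mouse 1 (edgeR adjusted p = 0.0551). C1qb was not called on TPM, with the replicate block, or without CT-26 mouse 1 or 3 or any 1 control mouse (edgeR adjusted p = 0.0777 to 0.1411 in the block and leave-out fits). In these bulk samples fewer cells of a type and less RNA per cell cannot be told apart, and the part of the oligodendrocyte, astrocyte and microglial markers in the enzyme values was not tested.

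**Figure D3:**
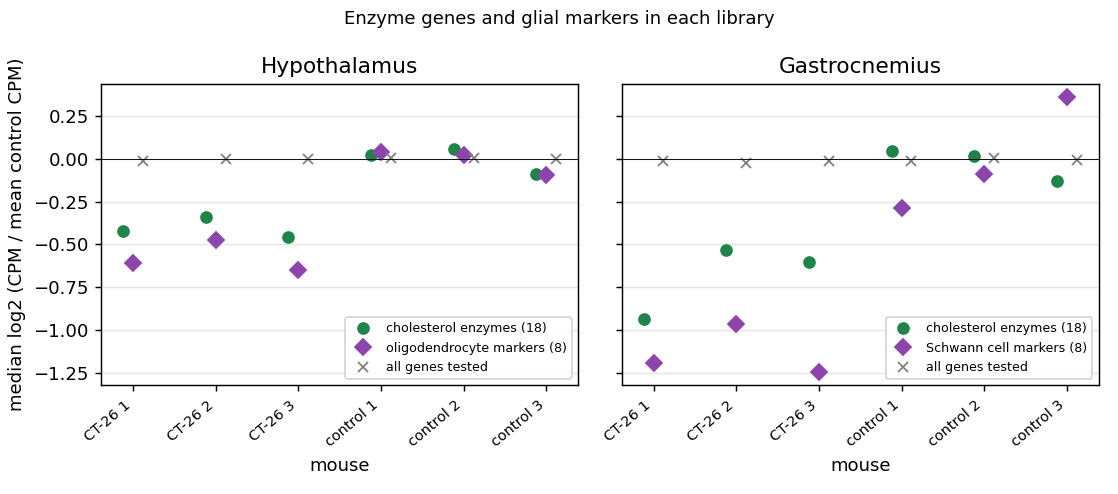
Median difference from the control mean, on the log2 CPM scale, of the 18 enzymes and of the oligodendrocyte markers in the hypothalamus and the Schwann cell markers in the gastrocnemius, 1 point per library, with CT-26 mice left of control mice and crosses for the median of all genes tested. In the hypothalamus the enzyme medians are -0.42, -0.34 and -0.46 in CT-26 mice and those of the oligodendrocyte markers are -0.61, -0.47 and -0.65.

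Promoters of the members were searched because SREBP and its partner NF-Y act at the sterol regulatory element and the CCAAT box. The 4 printed belong to enzymes called lower in the hypothalamus. RefSeq's table on GRCm38.p6 held the start of 24 of the 29 genes, and the 250 bases before each start were searched on both strands for TCACNCCAC, a short form of the sterol regulatory element, for CCAAT and for the E-box CACGTG. The 4 sequences below are given 5′ to 3′ on the gene's own strand and end at the base before the start. Capitals mark TCACNCCAC and CCAAT, the box being written ATTGG where it lies on the other strand.

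Hmgcs1, chr13:119690101-119690350, plus strand: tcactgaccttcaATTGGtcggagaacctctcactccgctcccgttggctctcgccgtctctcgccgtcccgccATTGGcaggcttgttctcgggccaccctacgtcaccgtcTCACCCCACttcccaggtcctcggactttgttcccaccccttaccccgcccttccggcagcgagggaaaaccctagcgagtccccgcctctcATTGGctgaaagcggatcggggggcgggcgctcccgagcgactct
Idi1, chr13:8885356-8885605, plus strand: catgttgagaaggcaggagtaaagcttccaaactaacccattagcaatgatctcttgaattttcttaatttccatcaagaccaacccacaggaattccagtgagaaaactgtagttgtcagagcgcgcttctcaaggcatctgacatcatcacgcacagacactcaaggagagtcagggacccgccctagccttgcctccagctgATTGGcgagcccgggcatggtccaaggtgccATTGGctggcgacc
Msmo1, chr8:64733579-64733828, minus strand: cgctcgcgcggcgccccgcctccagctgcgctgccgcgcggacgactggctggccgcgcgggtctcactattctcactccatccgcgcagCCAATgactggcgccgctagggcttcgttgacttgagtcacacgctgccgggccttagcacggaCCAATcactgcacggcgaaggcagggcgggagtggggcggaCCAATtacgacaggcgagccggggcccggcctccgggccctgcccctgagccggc
Mvd, chr8:122443423-122443672, minus strand: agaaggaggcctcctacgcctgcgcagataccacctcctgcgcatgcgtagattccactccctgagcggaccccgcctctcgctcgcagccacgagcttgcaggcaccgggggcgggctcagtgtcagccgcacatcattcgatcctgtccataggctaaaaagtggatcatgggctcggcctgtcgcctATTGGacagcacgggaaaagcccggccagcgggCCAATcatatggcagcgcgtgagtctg

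Hmgcs1 was the only one of the 24 genes with TCACNCCAC, which began 137 bases before its start, beside CCAAT boxes whose first bases lay 237, 176 and 45 bases before it. Idi1 had CCAAT boxes at 45 and 14 bases, Msmo1 at 160, 96 and 55 bases and Mvd at 60 and 27 bases. Of the 24 genes 18 (75.0%) held a CCAAT box in at least 1 listed promoter, compared with 37.5% of all 27025 genes in the table, and counted by promoter it was 19 of 35, compared with 33.8% of 32851. Cyp51, Dhcr7, Hmgcs1, Idi1, Msmo1, Mvd, Mvk, Nsdhl, Sc5d and Srebf2, called lower in the hypothalamus, held the box. So did Pmvk, Lss, Tm7sf2, Hsd17b7, Ebp, Insig1 and Insig2, not called there, and Srebf1, called higher. Acat2, Scap, Abca1, Nr1h2, Nr1h3 and Apoe, also not called there, had none. A link between the box and the fall was not tested. The E-box was in the promoters of 6 of the 24 (25.0%), namely Abca1, Dhcr7, Hsd17b7, Insig1, Sc5d and Scap, compared with 6.86% of all genes, and TCACNCCAC in 1.22% of all genes. These are matches of letters in a fixed window, with no measurement of binding.

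In the gastrocnemius of CT-26 mice most enzymes of the pathway that passed the test were lower. Of the 18 enzymes 10 were lower and 3, Fdft1, Mvd and Lss, were higher than in control mice, with a median log2 fold change of -0.75 against -0.0015 over all genes tested. Over the 29 genes 44.8% were called lower and 17.2% higher, and in this tissue, 38.0% of all 14265 genes were called, 18.3% as lower and 19.6% as higher, so the share of members called higher was near that of all genes. The number of lower members depended on the processing: 13 were lower and 5 higher with TMM scaling, and 7 lower and 6 higher with library totals. On deposited TPM with limma, which also changes the length correction and the test, 4 were lower and 7 higher. Fold changes on the TPM scale, here and below, are of log2(TPM + 0.5), and the added 0.5 shrinks those of low genes. Library totals moved the median log2 fold change over all genes to 0.20 and the TPM scale moved it to 0.28, and there the enzymes had medians of -0.56 and -0.18. CPM did not overlap between CT-26 and control mice for 51.7% of all genes in this tissue, with CT-26 mice above for 26.3% and below for 25.3%.

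Dhcr7 (chr7:143823145-143848410, plus strand) had the most negative fold change of the members in muscle. It had 1.779, 1.471 and 2.212 CPM in CT-26 mice, against 6.792, 7.0 and 8.245 CPM in control mice, a log2 fold change of -2.00 ± 0.19 (edgeR adjusted p = 0.000368). Tm7sf2, a sterol reductase (chr19:6062821-6068373, minus strand), had 0.953, 1.278 and 1.076 CPM in CT-26 mice and 3.396, 3.995 and 3.127 CPM in control mice, a log2 fold change of -1.68 ± 0.22 (edgeR adjusted p = 0.000946). Both genes' groups were far apart, and both stayed lower on the TPM scale (log2 fold changes -1.28 and -1.08). Tm7sf2 shares 532 exon bases with Vps51 on the same strand, a gene with 11.35, 11.07 and 10.67 CPM in CT-26 mice and 11.47, 11.18 and 11.41 CPM in control mice that did not pass the test. In the hypothalamus Vps51 was called higher (log2 fold change 0.25, edgeR adjusted p = 0.0320), at mean CPM of 36.92 in CT-26 mice and 30.99 in control mice. The part of Vps51 reads in the Tm7sf2 values of either tissue was not tested.

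Of the enzymes up to farnesyl diphosphate, Hmgcs1, Acat2, Fdps, Idi1 and Pmvk were called lower in muscle, Mvk did not pass the test, and Mvd was called higher. Hmgcs1 had 17.85, 22.03 and 19.49 CPM in CT-26 mice and 39.58, 39.62 and 38.56 CPM in control mice, a log2 fold change of -0.99 ± 0.12 (edgeR adjusted p = 0.000751). Acat2 had 1.101, 1.084 and 1.584 CPM in CT-26 mice and 3.213, 2.602 and 2.523 CPM in control mice, a log2 fold change of -1.14 ± 0.24 (edgeR adjusted p = 0.00697). The groups of both genes lay apart, and on the TPM scale their log2 fold changes were -0.61 and -0.55, still called by limma. Acat3, a close paralog of Acat2 that could exchange reads with it, was below the count filter in muscle and at no more than 0.4017 CPM in any muscle library.

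Fdps had 6.501, 8.673 and 8.966 CPM in CT-26 mice and 13.99, 14.18 and 12.37 CPM in control mice, a log2 fold change of -0.75 ± 0.16 (edgeR adjusted p = 0.00711). Idi1 had 4.172, 7.24 and 3.975 CPM in CT-26 mice and 12.23, 10.08 and 8.387 CPM in control mice, a log2 fold change of -1.01 ± 0.26 (edgeR adjusted p = 0.0159). In CPM neither gene's groups overlapped, but on the TPM scale neither was called (log2 fold changes -0.36 and -0.57), and Idi1 also lost its call when mouse 1 of either group was left out, at 0.0591 for the CT-26 mouse and 0.0626 for the control mouse. Sc5d had 9.657, 12.43 and 11.03 CPM in CT-26 mice and 24.06, 24.04 and 19.16 CPM in control mice, a log2 fold change of -1.03 ± 0.15 (edgeR adjusted p = 0.00152). Its effective length as estimated by RSEM was 2511 to 3512 bases in CT-26 mice and 4267 to 4545 bases in control mice, 29.4% lower on average, and its TPM values overlapped and were not called (log2 fold change -0.13), at 4.24 ± 0.87 in CT-26 mice and 4.67 ± 0.855 in control mice (SD, n = 3 each).

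Pmvk, Msmo1 and Cyp51 were called lower by a narrow margin. Pmvk had 2.859, 5.188 and 4.602 CPM in CT-26 mice and 6.755, 6.67 and 7.641 CPM in control mice (log2 fold change -0.75, edgeR adjusted p = 0.0305), with an adjusted p of 0.0509 to 0.0863 without CT-26 mouse 1 or 3 or any 1 control mouse. Msmo1 had 1.779, 1.51 and 2.241 CPM in CT-26 mice and 4.199, 2.712 and 2.914 CPM in control mice (log2 fold change -0.82, edgeR adjusted p = 0.0308), with an adjusted p of 0.0841 without CT-26 mouse 1, 0.0640 without CT-26 mouse 2 and 0.1220 without control mouse 1. Cyp51 had 2.52, 2.246 and 2.241 CPM in CT-26 mice and 3.177, 3.409 and 3.518 CPM in control mice (log2 fold change -0.52, edgeR adjusted p = 0.0421), and its adjusted p was 0.0600 to 0.1115 whichever library was left out. All 3 had groups that did not overlap in CPM, and none was called with library totals or on TPM. Sqle, Mvk, Nsdhl, Hsd17b7 and Ebp did not pass, with log2 fold changes between -0.86 for Sqle and 0.07 for Ebp.

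Fdft1, which commits farnesyl diphosphate to sterols, ran the other way in muscle. It had 172.1, 154.9 and 117.8 CPM in CT-26 mice, against 50.03, 60.11 and 55.83 CPM in control mice, a log2 fold change of 1.42 ± 0.17 (edgeR adjusted p = 0.000666) and the largest rise of the members. Every CT-26 mouse lay above every control mouse by a wide gap. On the opposite strand it shares 774 of its 4227 exon bases with Ctsb, which encodes the lysosomal protease cathepsin B. Ctsb had 289.5, 279.5 and 278.9 CPM in CT-26 mice and 268.2, 311.9 and 311.3 CPM in control mice and did not pass the test (log2 fold change -0.07), with overlapping groups. The strand setting of the counting is not given in the sources used here, and 1 of the 5 Fdft1 transcripts in the files is not in the GENCODE M21 annotation used for names.

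Fdft1 weighed heavily in the summed level of the enzymes in muscle. That sum was 147.6, 121.1 and 100.8 TPM in CT-26 mice and 91.27, 93.76 and 71.84 TPM in control mice, of which Fdft1 was 57.8%, 51.8% and 45.0% in CT-26 mice and 19.2%, 25.3% and 22.7% in control mice. Without Fdft1 the other 17 enzymes summed to 62.34, 58.41 and 55.42 TPM in CT-26 mice and 73.72, 70.05 and 55.56 TPM in control mice. The first sum was higher in every CT-26 mouse than in any control mouse, whereas the second overlapped between the groups. In the hypothalamus Fdft1 was 8.49% to 9.01% of the enzyme sum in CT-26 mice and 8.55% to 8.69% in control mice.

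Mvd and Lss rose alongside Fdft1. Mvd had 10.19, 4.491 and 9.922 CPM in CT-26 mice and 3.213, 2.785 and 3.412 CPM in control mice, a log2 fold change of 1.39 ± 0.30 (edgeR adjusted p = 0.00813), with CT-26 mouse 2 nearest to the controls. Lss, the cyclase that makes lanosterol, had 7.116, 6.776 and 4.961 CPM in CT-26 mice and 3.177, 2.749 and 2.985 CPM in control mice, a log2 fold change of 1.08 ± 0.19 (edgeR adjusted p = 0.00321). Neither gene's groups overlapped, and Fdft1, Mvd and Lss were called higher under all 13 alternatives tried in this tissue.

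Of the SREBP control genes in muscle, Srebf2 had 13.0, 10.76 and 12.19 CPM in CT-26 mice and 18.88, 21.29 and 17.06 CPM in control mice, a log2 fold change of -0.67 ± 0.13 (edgeR adjusted p = 0.00605) without overlap. On the TPM scale its log2 fold change was -0.14 and not called, and with library totals it was -0.47 with an adjusted p of 0.0533. Insig2 had 30.73, 33.96 and 36.58 CPM in CT-26 mice and 46.81, 41.64 and 41.3 CPM in control mice (log2 fold change -0.36 ± 0.12, edgeR adjusted p = 0.0455), and its adjusted p was 0.0687 to 0.1556 without CT-26 mouse 1 or 2 or any 1 control mouse. It was also not called with library totals or on TPM. Its groups did not overlap in CPM, and its effective length was 11.7% higher in CT-26 mice, at 2259 to 2447 bases in CT-26 mice and 1931 to 2218 bases in control mice. Srebf1, Scap and Insig1 had log2 fold changes of -0.05, 0.28 and -0.07 and overlapping groups.

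Of the 6 genes of transport and efflux in muscle, Abca1 and Nr1h2 rose and Stard4 fell. Abca1 (chr4:53030787-53159895, minus strand), the exporter that loads sterol onto apolipoproteins, had 32.38, 29.89 and 29.2 CPM in CT-26 mice and 11.36, 14.26 and 12.01 CPM in control mice, a log2 fold change of 1.28 ± 0.13 (edgeR adjusted p = 0.000405). Nr1h2 (chr7:44549616-44553951, minus strand) had 56.99, 60.63 and 61.27 CPM in CT-26 mice and 35.89, 40.61 and 37.67 CPM in control mice, a log2 fold change of 0.65 ± 0.11 (edgeR adjusted p = 0.00301). The groups of both genes were apart, and both were called higher under all 13 alternatives.

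Stard4 had 1.482, 1.549 and 1.375 CPM in CT-26 mice and 2.958, 1.942 and 2.132 CPM in control mice (log2 fold change -0.67 ± 0.23, edgeR adjusted p = 0.0498), and its adjusted p was 0.0609 to 0.1938 whichever library was left out, nor was it called by DESeq2, with library totals or on TPM. Nr1h3 had 14.34, 20.02 and 22.92 CPM in CT-26 mice and 12.16, 12.97 and 17.27 CPM in control mice (log2 fold change 0.43, not called), but was called higher with library totals (0.64) and on TPM (0.77), where Scap was also higher (0.71). Abcg1, with at most 2.092 CPM, had a log2 fold change of 0.47 and Apoe of 0.08, both with overlapping groups. The effective length of Abcg1 was 5282 to 5589 bases in CT-26 mice and 3234 to 3250 bases in control mice, 66.3% higher, although its counts did not pass the test. A shift in effective length of over 10% without overlap was found in 3 of the 29 genes in muscle, where 5.33% of all genes tested had one, and in none of the 29 in the hypothalamus, where 2.49% had one.

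Markers of several cell types were lower in CT-26 gastrocnemius beside these genes, where 18.3% of all genes tested were called lower. Of 6 muscle fiber markers 5 were below 0, with a median log2 fold change of -0.31. Acta1 was called lower and Des higher, and Acta1 was not called without control mouse 2 (edgeR adjusted p = 0.0565) or on TPM. Adipocyte markers fell in 6 of 6 tested and summed to 13.47 to 19.28 CPM in CT-26 mice and 70.8 to 92.29 CPM in control mice. Schwann cell markers fell in 6 of 8 and summed to 40.28 to 53.47 CPM in CT-26 mice and 94.54 to 128.9 CPM in control mice. Fibroblast markers fell in 7 of 8 and summed to 348.1 to 474.4 CPM in CT-26 mice and 930.7 to 1477 CPM in control mice. None of 8 macrophage markers tested was called by edgeR (2 at an unadjusted p below 0.05) or by DESeq2, and their sums overlapped, at 27.14 to 76.45 CPM in CT-26 mice and 44.17 to 54.35 CPM in control mice. Endothelial markers had Cldn5 called higher and Kdr and Cdh5 lower of 6, with sums of 120.1 to 145.6 CPM in CT-26 mice and 144.6 to 170.4 CPM in control mice. The part of any of these marker lists in the values of the members was not tested.

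The response of a member was set against itself between tissues through an interaction term, the log2 fold change in the gastrocnemius minus that in the hypothalamus. It was called for 12 of the 29 genes, 5 of them with the more positive change in muscle (17.2%) and 7 with the more negative one (24.1%), where 33.2% of the 13572 genes tested in both tissues were called, 16.4% positive and 16.8% negative. This fit left out that each mouse gave both tissues. With the mouse as a block 9 of the 29 were called, 5 positive and 4 negative. Over all 18746 genes the calls then numbered 3867, where the fit without the block gave 4952. The differences and adjusted p below are from the fit without the block unless stated. Fdft1, Mvd and Lss had differences of 1.79 ± 0.17, 1.97 ± 0.33 and 1.22 ± 0.18 (edgeR adjusted p = 2.59e-05, 0.000805 and 0.000312). For Fdft1 and Mvd the fits of each tissue alone gave calls in opposite directions. Their log2 fold changes were 1.42 and 1.39 in the gastrocnemius and -0.39 and -0.59 in the hypothalamus. The fit over all 12 libraries did not call their falls in the hypothalamus (edgeR adjusted p = 0.211 and 0.3123). Abca1 and Nr1h2 also differed, by 0.99 ± 0.16 and 0.68 ± 0.13 (edgeR adjusted p = 0.000822 and 0.00198).

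On the negative side stood Tm7sf2 with -1.66 ± 0.20, Dhcr7 with -1.50 ± 0.18 and Acat2 with -0.98 ± 0.19 (edgeR adjusted p = 9.52e-05, 9.48e-05 and 0.0024). Dhcr7 fell in both tissues, with log2 fold changes of -2.00 in the gastrocnemius and -0.52 in the hypothalamus, so the difference was one of size. Sc5d, Hmgcs1, Insig2 and Pmvk had differences of -0.54, -0.42, -0.43 and -0.74 (edgeR adjusted p = 0.0249, 0.0359, 0.0287 and 0.0378). With the mouse as a block, which is due here because each mouse gave both tissues, Hmgcs1, Insig2 and Pmvk lost their call (adjusted p = 0.0580, 0.0819 and 0.0771), and Sc5d kept it (0.0307).

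The same 4 genes lost the interaction call without single mice. The adjusted p of Hmgcs1 was 0.0534 to 0.1183 without CT-26 mouse 1 or 3 or any 1 control mouse, and that of Pmvk was 0.0625 to 0.15 without the same ones. That of Sc5d was 0.0619 to 0.1047 without CT-26 mouse 1 or 3 or control mouse 1 or 2, and that of Insig2 was 0.0521 to 0.16 without CT-26 mouse 1 or 2 or control mouse 1 or 2. With library totals 5 calls were positive and 3 negative. On TPM with limma, which also changes the length correction and the test, 9 were positive and 2 negative, and there the differences of Sc5d and Hmgcs1 had the opposite sign (0.35 and 0.014) and that of Acat2 was -0.33 and not called. The median difference over all genes was -0.059 with TMM, 0.11 with library totals and 0.19 on TPM. Fdft1, Mvd, Lss, Abca1, Nr1h2, Tm7sf2 and Dhcr7 kept their call and direction under all 12 alternatives.

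**Figure D4:**
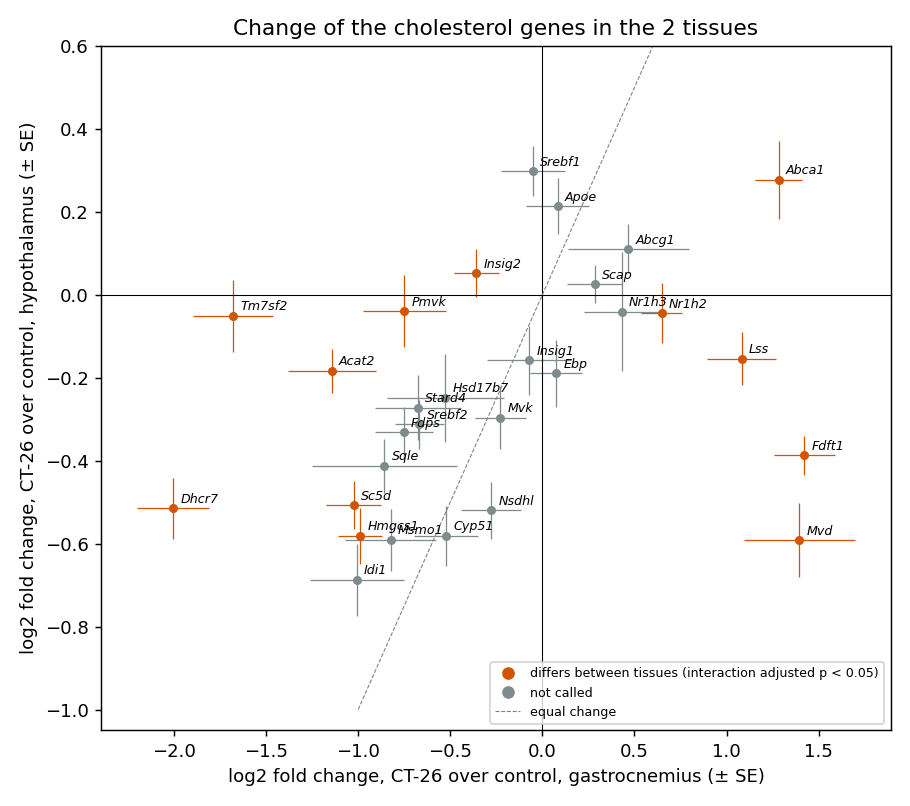
Log2 fold change, CT-26 over control, of each of the 29 genes in the gastrocnemius (x axis) and in the hypothalamus (y axis, on a wider scale), with error bars of 1 SE from edgeR, a dashed line of equal change and the 12 genes called in the interaction in orange. The interaction was fitted without the mouse as a block. Fdft1 and Mvd lie at 1.42 and 1.39 in the gastrocnemius and at -0.39 and -0.59 in the hypothalamus, and Dhcr7 lies lowest in the gastrocnemius at -2.00.

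Genes of neighboring lipid routes were read from lists beside the members. Of all genes tested, 4.83% were called lower and 3.94% higher in the hypothalamus, and 18.3% lower and 19.6% higher in the gastrocnemius. Of 14 genes of fatty acid synthesis, which SREBP also governs, 10 were lower and 1 higher in the CT-26 hypothalamus, with a median log2 fold change of -0.27. Scd1, the stearoyl-CoA desaturase, had 183.4, 226.7 and 202.9 CPM in CT-26 mice and 337.9, 345.0 and 321.9 CPM in control mice (log2 fold change -0.71 ± 0.072, edgeR adjusted p = 0.000493), and Elovl5, a fatty acid elongase, had a log2 fold change of -0.52 (edgeR adjusted p = 0.00255). Acacb, an acetyl-CoA carboxylase, was the 1 that rose, at 0.51 (edgeR adjusted p = 0.00589). Leaving out 1 library gave 4 to 9 lower genes, with 6 without CT-26 mouse 1, 2 or 3 and 4 without control mouse 2, and on TPM 3 were lower and 0 higher. Of the genes called, Elovl5 alone kept its call in the fit over all 12 libraries. There Scd1 had an edgeR adjusted p of 0.2786 and Acacb of 0.1293.

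In the CT-26 gastrocnemius 7 of the 14 fatty acid genes were lower and 3 higher with TMM scaling, 4 lower and 3 higher with library totals, and 2 lower and 3 higher on TPM. Fasn, the fatty acid synthase, had 11.37, 10.03 and 10.16 CPM in CT-26 mice and 31.29, 25.0 and 29.39 CPM in control mice (log2 fold change -1.44 ± 0.13, edgeR adjusted p = 0.000303). Scd1 had 12.79, 13.9 and 19.81 CPM in CT-26 mice and 164.1, 81.33 and 71.47 CPM in control mice (log2 fold change -2.77 ± 0.34, edgeR adjusted p = 0.000774). Both were far below controls in every CT-26 mouse. Fads1, a fatty acid desaturase, was lower by less (log2 fold change -0.86, edgeR adjusted p = 0.00351), and not called on TPM. The list had 5 lower and 2 higher genes without CT-26 mouse 1, and 4 lower and 2 higher without control mouse 1.

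Of the genes of sterol uptake and trafficking, Npc1 rose in the gastrocnemius and fell in the hypothalamus. This protein, which moves cholesterol out of lysosomes, had 83.33, 39.61 and 39.75 CPM in CT-26 gastrocnemius and 9.384, 11.51 and 11.3 CPM in control gastrocnemius, a log2 fold change of 2.34 ± 0.30 (edgeR adjusted p = 0.000936), with CT-26 mouse 1 highest. In the hypothalamus it had 50.71, 50.75 and 51.47 CPM in CT-26 mice and 66.87, 70.09 and 60.56 CPM in control mice, a log2 fold change of -0.37 ± 0.060 (edgeR adjusted p = 0.00507). The fit over all 12 libraries did not call this fall (edgeR adjusted p = 0.6266). In all, 4 of 13 genes of this list tested in muscle were higher and none lower: Npc1, Gramd1b and Scarb1, the last 2 with log2 fold changes of 1.21 and 0.78, and Vldlr, named after its values were seen, with 0.61 and an adjusted p of 0.0510 to 0.0742 without CT-26 mouse 1 or control mouse 2 or 3. Among all genes tested in muscle, 19.6% were called higher by edgeR. With library totals and on TPM 8 of the 13 were higher in muscle. In the hypothalamus 2 of 14 were lower, Npc1 and Stard3 (log2 fold change -0.28), and the call of Stard3 was lost with DESeq2, with library totals and without any library but control mouse 1, where 4 genes were lower.

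Of the oxysterol and efflux genes outside the members, Ch25h, which makes an oxysterol that blocks SREBP processing, had 1.145, 1.406 and 1.01 CPM in CT-26 hypothalamus and 0.06778, 0.1182 and 0.1815 CPM in control hypothalamus. Ch25h rests on 32, 39 and 53 expected counts in CT-26 mice and 2, 4 and 5 in control mice, so it passed the filter on low counts through the CT-26 mice alone and no fold is given. Lcat, which esterifies cholesterol on lipoproteins, had 8.266, 12.04 and 9.799 CPM in CT-26 mice and 17.93, 20.8 and 15.61 CPM in control mice (log2 fold change -0.86 ± 0.14, edgeR adjusted p = 0.00502). The groups of Lcat lay apart, but the fit over all 12 libraries did not call it (edgeR adjusted p = 0.1623). Apoc1 was also called there, at 0.74, among 12 genes tested. Its adjusted p was 0.0653 to 0.135 without CT-26 mouse 1 or 3 or any 1 control mouse. In the gastrocnemius 4 of 10 were higher, Abca7, Cyp7b1, Mylip and Rxrb (the last 2 named after their values were seen), and Apoc1 was lower. Of all genes tested in that tissue, 19.6% were called higher and 18.3% lower. Abca7 had a log2 fold change of 0.63 (edgeR adjusted p = 0.00753). Cyp7b1, an oxysterol hydroxylase, had at most 0.8368 CPM and passed the filter on low counts through the CT-26 mice alone, with 18, 14 and 28 expected counts in CT-26 mice and 4, 4 and 2 in control mice. Apoc1 passed it through the control mice alone, and its adjusted p was 0.0527 to 0.0706 without CT-26 mouse 1 or control mouse 1 or 3. The filter favored the muscle calls of Cyp7b1 and Apoc1, so neither is read as a result. Mylip was not called without CT-26 mouse 1 or any 1 control mouse (0.0556 to 0.0997), nor Rxrb without CT-26 mouse 1 or 3 or control mouse 1 or 2 (0.0542 to 0.1419). The number higher there was 6 with library totals and 7 on TPM, and 2 without CT-26 mouse 1 or control mouse 1.

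The branch that leads from isoprenoid diphosphates to coenzyme Q, dolichol and protein prenylation changed in few genes. Of 11 such genes 1 was lower in the gastrocnemius, Pdss2, which builds the coenzyme Q tail (log2 fold change -0.75 ± 0.14, edgeR adjusted p = 0.00371, not called on TPM), and 0 were called in the hypothalamus by edgeR (2 at an unadjusted p below 0.05) or DESeq2. Of 13 genes that process or degrade SREBP, Scap and Insig proteins, Mbtps2 and Sec24c were higher in the gastrocnemius (log2 fold changes 0.42 and 0.34, edgeR adjusted p = 0.0403 and 0.0494), and Erlin1 was lower in the hypothalamus (-0.38, edgeR adjusted p = 0.0209). Among all genes tested, 19.6% were called higher in the gastrocnemius and 4.83% lower in the hypothalamus. Both muscle calls were lost without CT-26 mouse 1 or 2 or any 1 control mouse (adjusted p = 0.0584 to 0.1815), and the call of Erlin1 without any 1 CT-26 mouse or control mouse 2 (0.0532 to 0.0850).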

How the data were processed

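RNA of gastrocnemius and hypothalamus was sequenced as 100 bp pairs from a directional library kit, per the labels. Per the submitters' processing notes, the tools were RSEM 1.3.3, STAR 2.7.9a and Trim Galore 0.6.6, and the build was GRCm38. Which annotation release and which strand setting were used is not given in the sources used here. The deposited tables hold RSEM expected counts, TPM and an effective length per gene, the last being a number of bases estimated by the authors' RSEM run and used only as a description. FPKM was not used. Symbols and coordinates came from GENCODE M21, which named 52083 of the 55416 identifiers.

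Expected counts were rounded to whole numbers and tested per tissue with edgeR 4.0.16 in R 4.3.3 (filterByExpr, TMM, quasi-likelihood test, Benjamini-Hochberg adjustment over all genes tested, called below 0.05), and the difference between tissues as an interaction over all 12 libraries and 18746 genes. The code was tested on simulated data. Replicates differed by more than sampling noise (chi-square per gene at least 5.863). Each gastrocnemius library held at least 26015741 counts and each hypothalamus library at least 27195316, so counting error is small except for genes near 1 CPM. Groups came from the sample titles, which number the mice, so p-values measure the spread between mice. By the labels a number within a group is 1 mouse that gave both tissues, so the numbers pair the tissues but not CT-26 with control mice.

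The alternatives were library totals, DESeq2 1.42.0, no filter, at least 1 CPM in 3 libraries, log2(TPM + 0.5) with limma 3.58.1, a replicate block, a fit over all 12 libraries and leaving out each library. Fold changes on log2(TPM + 0.5) understate changes of low genes. The 29 genes are all accounted for: genes called in either tissue or in the interaction are given in full and the others by range, and of every other list the called genes with the 3 smallest p per tissue may be named, besides genes that overlap a member. The members and lists were chosen with earlier results of these data known.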

Additional observations from a re-analysis of the deposited data

Results flagged for a closer look

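The change with the tumor differed between gastrocnemius and hypothalamus for 12 of the 29 genes in edgeR's interaction test, each with a Benjamini-Hochberg adjusted p below 0.05, where 33.2% of the 13572 genes tested in both tissues were called. The difference, gastrocnemius minus hypothalamus on the log2 scale, was 1.97 for Mvd, 1.79 for Fdft1, 1.22 for Lss, 0.99 for Abca1 and 0.68 for Nr1h2. It was -1.66 for Tm7sf2, -1.50 for Dhcr7, -0.98 for Acat2, -0.74 for Pmvk, -0.54 for Sc5d, -0.43 for Insig2 and -0.42 for Hmgcs1. Those of Pmvk, Insig2 and Hmgcs1 were not called with the mouse as a block.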

How the results depend on the processing

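Of the 29 genes, 18 were called in the gastrocnemius, 14 in the hypothalamus and 12 in the interaction. TPM with limma called 11 in the gastrocnemius, 9 of them among the 18, and the fit over all 12 libraries called 3 in the hypothalamus. With the replicate block the counts were 17, 13 and 9. By the labels the numbers do not pair CT-26 with control mice. Correlations of deviations between equal numbers ran from -0.10 to 0.00 in the hypothalamus and from -0.06 to 0.26 in the gastrocnemius. Those between unequal numbers ran from -0.08 to 0.09 and from -0.25 to 0.10. In the gastrocnemius the correlations do not settle whether the numbers pair, because equal numbers had the highest values. Leaving out 1 library gave 12 to 15 calls in the gastrocnemius and in the hypothalamus, and leaving out 1 mouse gave 8 to 12 in the interaction. Over all genes, the 1575 calls in the hypothalamus became 520 on TPM, 162 in the fit over all 12 libraries, 2598 without a filter and 576 to 1266 with 1 library left out. The 5417 in the gastrocnemius became 3547 without control mouse 1, and the 4952 of 18746 in the interaction became 3223 without control mouse 1 and 3204 without control mouse 2.

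Some log2 fold changes turned sign, and the cause was not tested. In the gastrocnemius TPM with limma gave 0.094 for Mvk, 0.073 for Nsdhl, 0.32 for Srebf1 and 0.18 for Insig1, and library totals gave 0.13 for Srebf1 and 0.14 for Insig1. In the hypothalamus TPM gave -0.079 for Scap and -0.089 for Insig2. In the interaction TPM gave 0.014 for Hmgcs1, 0.14 for Idi1, 0.19 for Sqle, 0.44 for Msmo1, 0.14 for Hsd17b7, 0.35 for Sc5d, 0.040 for Srebf1, 0.31 for Srebf2, 0.15 for Stard4, -0.010 for Abcg1 and 0.30 for Apoe, and library totals gave 0.044 for Apoe. Leaving out 1 library moved Srebf1 between -0.24 and 0.053, Insig1 between -0.34 and 0.13 and Apoe between -0.025 and 0.29 in the gastrocnemius. It moved Pmvk between -0.14 and 0.046, Tm7sf2 between -0.10 and 0.013, Nr1h2 between -0.11 and 0.026 and Nr1h3 between -0.13 and 0.018 in the hypothalamus. Leaving out 1 mouse moved Sqle between -0.71 and 0.080, Cyp51 between -0.025 and 0.14, Insig1 between -0.26 and 0.35 and Apoe between -0.25 and 0.045 in the interaction. Of all these, Hmgcs1 and Sc5d in the interaction were called with TMM.

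Several muscle members lie near 1 CPM, where counting limits precision, and groups of 3 mice leave small changes undetected. Without a stated strand setting, reads from overlapping genes on opposite strands, such as Fdft1 and Ctsb, cannot be told apart. Hmgcs1, Idi1, Lss, Cyp51, Srebf1 and Scap also share exon bases with a gene on the opposite strand, and Fdps shares 1124 with Gm43738 on its own strand. The partners of Hmgcs1, Idi1, Lss, Scap and Fdps averaged at most 0.308 TPM in either tissue. Akap9, the partner of Cyp51, averaged 12.71 TPM in the gastrocnemius and 20.778 TPM in the hypothalamus. Rai1, the partner of Srebf1, averaged 6.767 and 22.28 TPM. The part of these genes in the members' values was not tested.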
